A study of Homo sapiens with 12 samples.

Results

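Autophagy genes and the genes of the lysosomal proton pump were followed in A375, an established human melanoma cell line. Of the 4918 genes in the expression table, 45 were taken by symbol: 18 that start with ATG and a digit, BECN1 and AMBRA1 (20 genes, called the ATG side below), and 25 that start with ATP6V or ATP6AP. Of those 25, 23 encode subunits or accessory proteins of the pump. The other 2, ATP6V0E2-AS1 and ATP6V1B1-AS1, are antisense RNAs that only share the pump genes' names and were kept apart. The 4918 genes run from A1BG to FAM46B by symbol, and shares of all genes below are over these. Partners with later symbols, such as ULK1, are not among them, so the complexes may be covered only in part. The cells formed 4 groups of 3 samples each: control cells, cells given SB-3CT (an inhibitor of the gelatinases MMP2 and MMP9), cells given interferon gamma (IFN-γ), and cells given SB-3CT with IFN-γ (SB-3CT+IFN-γ), with treatments of 24 h. All groups are the same cell line, with no genetic change named in the labels. The libraries are of bulk RNA, so fewer expressing cells and less RNA per cell cannot be told apart. The labels do not say whether replicates were separate cultures, and the study describes its experiments as independently repeated without tying this to these libraries, so p-values measure the spread between these samples, which may be technical. Values are log2(FPKM + 1), where FPKM is the fragment count scaled by transcript length and by the mapped fragments of the sample, and FPKM is given in the text for levels.

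Autophagy encloses cytoplasm in a double membrane and delivers it to the lysosome. The ULK1 complex starts the process, the BECN1 lipid kinase complex marks the membrane, ATG9 and ATG2 proteins supply lipid, and a conjugation system, with ATG4 proteases that process its substrates, attaches ATG8 proteins to the growing membrane. The lysosome is acidified by the vacuolar ATPase, in which a cytosolic V1 sector hydrolyses ATP and turns a rotor, and a membrane V0 sector carries the protons across. The same acidity is needed for degradation of what autophagy delivers.

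Pump and lysosomal genes are known to share a short promoter element, CACGTG, read by the transcription factor TFEB and its relatives. It was therefore searched in the RefSeq promoters (GRCh38.p14, 250 bases before to 50 after each start), which were matched for 36 of the 45 genes. CACGTG reads the same on both strands. It was present in 6 of these 36 genes, 4 of 15 on the pump side (ATP6V1G1, ATP6V0B, ATP6V0D1 and ATP6V0E2) and 2 of 19 on the ATG side (ATG3 and ATG14), and in 7.26% of 35116 promoters. A gene was counted if any of its listed promoters held the element, while the percentage is over single promoters. The counts and the percentage are therefore not in like units. The 110 bases upstream of the start are printed for the 4 pump genes, 5′ to 3′ on the gene's strand, with CACGTG in capitals, so that the pump genes with the element can be set beside their levels.
ATP6V1G1 (chr9:114587659-114587768, plus strand): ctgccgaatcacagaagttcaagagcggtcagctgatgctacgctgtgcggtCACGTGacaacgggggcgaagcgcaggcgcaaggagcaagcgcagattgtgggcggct
ATP6V0B (chr1:43974850-43974959, plus strand): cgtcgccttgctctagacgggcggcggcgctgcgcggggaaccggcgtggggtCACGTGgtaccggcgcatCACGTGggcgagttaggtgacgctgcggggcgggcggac
ATP6V0D1 (chr16:67481158-67481267, minus strand): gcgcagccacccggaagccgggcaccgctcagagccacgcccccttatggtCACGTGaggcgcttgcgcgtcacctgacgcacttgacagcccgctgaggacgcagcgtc
ATP6V0E2 (chr7:149872858-149872967, plus strand): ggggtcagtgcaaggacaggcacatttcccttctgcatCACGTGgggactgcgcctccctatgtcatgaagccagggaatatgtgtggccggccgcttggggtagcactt
The element was present 2 times in the ATP6V0B window and once in each of the others. A second element, TTCNNNGAA, the core bound by STAT factors activated by interferons, was present on either strand in AMBRA1, ATG5 and ATP6V1F and in 7.66% of all promoters. A match is a string of letters and not a measured binding site.

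The IFN-γ labels were checked by a target gene, and no such check of the SB-3CT labels was made. CXCL10, an IFN-γ target, was between 0 and 0.05 FPKM in the 6 samples without IFN-γ and between 78.7 and 122 FPKM in the 6 with it. AXL, CSPG4 and CDH2, which are common in melanoma lines of mesenchymal type, were detected, while the pigment cell genes DCT and CAPN3 stayed under 0.4 FPKM. EDNRB, the remaining gene of this melanoma and neural crest list, was detected in every group, at a mean of 5.51 FPKM. Markers of epithelial, blood, endothelial and fibroblast cells that are in the table (EPCAM, CD14, CD79A, CD8A, CD4, CDH5, COL1A1, COL1A2, DCN) stayed under 0.5 FPKM. The depth of a sample relative to the control mean was between 87.4% and 149.9%, and the absolute number of reads is unknown. The SB-3CT+IFN-γ group stood apart in scale: among the 3177 genes with a mean of at least 1 FPKM, the median log2 change against IFN-γ was -0.20, and 0.02 after scaling by the median ratio between samples. For this reason the values after median ratio scaling are given beside changes of that group.

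The pump side was expressed at higher levels than the ATG side. With a mean of at least 1 FPKM were 17 of 20 ATG-side genes, with a median of 8.75 FPKM, and 18 of 23 pump genes, with a median of 39.4 FPKM, against 9.36 FPKM over all genes that passed. The highest member was ATP6V1F, a rotor subunit, at a mean of 426 FPKM over 12 samples. ATP6V0E1, ATP6V0B and ATP6V0C, small membrane subunits, followed at means of 284, 225 and 221 FPKM. The highest on the ATG side was ATG101, which stabilises ATG13 in the ULK1 complex, at 165 FPKM. Below 1 FPKM were ATG16L2, ATG2B and ATG9B, and the pump genes ATP6AP1L, ATP6V0D2, ATP6V1B1, ATP6V1C2 and ATP6V1E2. Several of these are the forms of duplicated subunits known from kidney, bone or testis (ATP6V1B1, ATP6V0D2, ATP6V1E2), and their widespread partners ATP6V1B2, ATP6V0D1 and ATP6V1E1 were at means of 32.6, 60.3 and 92.6 FPKM. ATG9B was listed at 0 in 8 of 12 samples.

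With IFN-γ present, SB-3CT moved pump genes in both directions on either scale, and the calls on both sides depended on the scale. Against IFN-γ alone, 5 pump genes fell and 4 rose, and 7 ATG-side genes fell and 0 rose (limma, Benjamini-Hochberg adjusted p under 0.05 over all genes). Over all genes, 37.9% were called in this comparison, 31.5% lower and 6.41% higher. The 7 of 20 ATG-side genes called lower are near the share of all genes called lower. The 9 of 23 pump genes called in either direction are near the share of all genes called. The median log2 change was -0.20 over the ATG side, -0.12 over the pump and -0.09 over all genes. Over the 3177 genes with a mean of at least 1 FPKM it was also -0.20. After median ratio scaling, 3 ATG-side genes rose and 1 fell, 7 pump genes rose and 2 fell, 16.5% of all genes were higher and 15.5% lower, and the pump median turned to 0.08, with -0.04 for the ATG side. The falls on the ATG side thus depend on the scale, and only ATG2B remained lower under median ratio scaling. BECN1 remained lower under quantile normalization and with the length trend removed (-0.26, limma adjusted p = 0.0309). ATP6V1A and ATP6AP2 remained lower, and ATP6V0E1, ATP6V1E1 and ATP6V1G1 higher, under median ratio scaling and quantile normalization as well.

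IFN-γ alone moved 9 pump genes and 3 ATG-side genes. Against control, 7 pump genes fell and 2 rose, and 2 ATG-side genes fell and 1 rose, with 19.5% of all genes called, 8.46% higher and 11.0% lower. Under median ratio scaling 4 pump genes fell and 2 rose, and 1 ATG-side gene fell and 1 rose, with 12.1% of all genes higher and 10.2% lower. The 2 pump genes that rose were ATP6V1A and ATP6V1B2, which together form the catalytic ring of the V1 sector. With SB-3CT alone, 2 ATG-side genes rose, 3 pump genes fell and 1 rose, with 12.2% of all genes called, 5.37% higher and 6.87% lower, and nothing particular to the members is read from these counts. Between SB-3CT+IFN-γ and SB-3CT, 11 ATG-side genes fell and 1 rose, and 10 pump genes fell and 3 rose, with 40.5% of all genes called, 7.85% higher and 32.7% lower. After median ratio scaling the counts were 2 lower and 3 higher on the ATG side and 2 lower and 4 higher for the pump, with 13.7% of all genes higher and 10.2% lower. The 2 comparisons with SB-3CT+IFN-γ share those samples, and the 2 against control share the control samples. The difference between the SB-3CT change seen with IFN-γ and that seen in its absence was tested over all 12 samples. It was negative for 5 ATG-side and 6 pump genes and positive for 0 and 5, with 22.3% of all genes called, 4.74% higher and 17.6% lower. After median ratio scaling 0 ATG-side and 5 pump genes were called, with 7.81% of all genes higher and 5.23% lower.

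**Figure D1:**
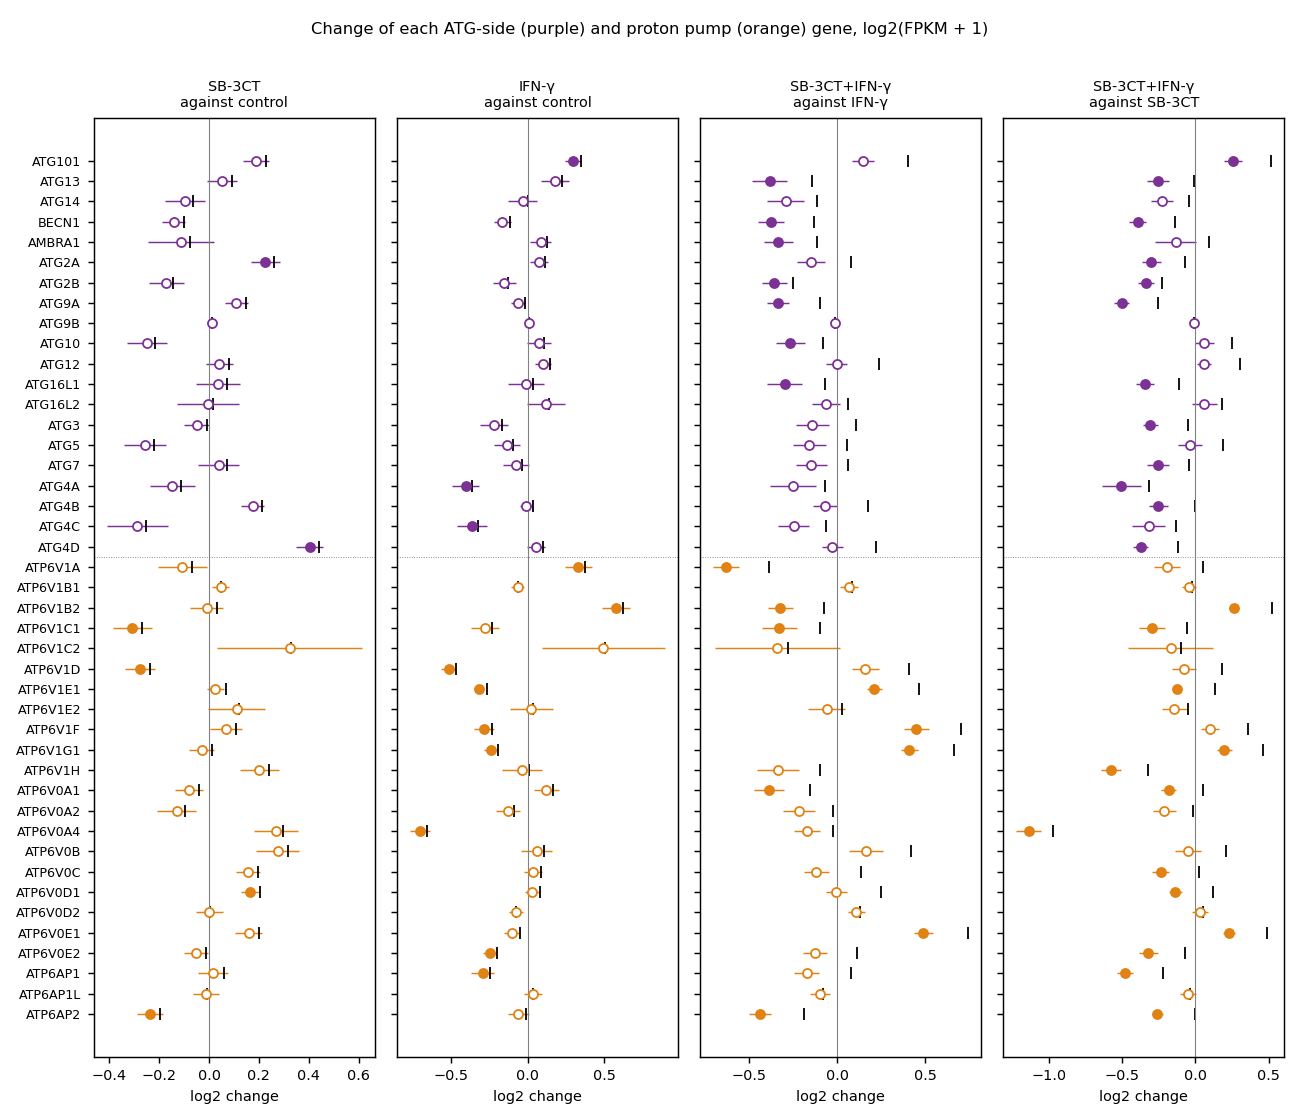
Log2 change (horizontal axis, log2(FPKM + 1) scale) of each ATG-side and pump gene, those below 1 FPKM included, in 4 comparisons. Dots are limma estimates with SE bars, filled where the adjusted p was under 0.05, purple for the ATG side and orange for the pump, and black ticks are the estimates after median ratio scaling. In SB-3CT+IFN-γ against IFN-γ the pump genes spread from -0.63 (ATP6V1A) to 0.49 (ATP6V0E1), a wider span than that of the ATG side.

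In the ULK1 complex, ATG13 fell against IFN-γ on the deposited scale and ATG101 did not pass the test there. ATG13 (chr11:46639077-46696368, hg19), the subunit that binds ULK1, was at 15.7, 16.8 and 17.0 FPKM in control, 18.3, 16.9 and 16.2 with SB-3CT, 21.0, 16.3 and 19.3 with IFN-γ, and 15.3, 14.3 and 12.9 with SB-3CT+IFN-γ. The SB-3CT+IFN-γ samples lay below the other 9. Its log2 change against IFN-γ was -0.38 ± 0.10 (SE, n = 3 and 3, limma adjusted p = 0.0215). The call was lost under median ratio scaling (-0.14, limma adjusted p = 0.212) and without IFN-γ replicate 1 or 3 or SB-3CT+IFN-γ replicate 2 or 3 (limma adjusted p up to 0.0923).

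ATG101 was at 138, 133 and 146 FPKM in control, 151, 161 and 163 with SB-3CT, 164, 177 and 172 with IFN-γ, and 200, 177 and 192 with SB-3CT+IFN-γ. All control samples lay below all treated ones. The difference between SB-3CT+IFN-γ and IFN-γ was 0.15 (limma adjusted p = 0.113), and 0.40 after median ratio scaling (limma adjusted p = 0.0121). IFN-γ raised it by 0.30 ± 0.05 on the log2 scale (n = 3 and 3, limma adjusted p = 0.0117), a call lost without control replicate 1 or IFN-γ replicate 3 (limma adjusted p = 0.0504 and 0.0521). It also rose in SB-3CT+IFN-γ against SB-3CT, by 0.26 (limma adjusted p = 0.0162, and 0.0595 without SB-3CT+IFN-γ replicate 3), and by 0.52 after median ratio scaling.

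In the lipid kinase complex, BECN1 (chr17:40962152-40985367, hg19) and AMBRA1 (chr11:46417964-46615675, hg19), which links BECN1 to its regulators, both had their lowest group mean with the combined treatment. BECN1, the core scaffold, was at 29.3, 30.1 and 30.5 FPKM in control, 28.4, 25.8 and 26.9 with SB-3CT, 28.8, 25.3 and 25.9 with IFN-γ, and 18.9, 21.1 and 21.0 with SB-3CT+IFN-γ. No SB-3CT+IFN-γ sample reached the range of any other group. Its log2 change was -0.37 ± 0.07 against IFN-γ (n = 3 and 3, limma adjusted p = 0.00649) and -0.40 ± 0.06 against SB-3CT (limma adjusted p = 0.00379). Both calls were lost under median ratio scaling (-0.13 and -0.14, limma adjusted p = 0.136 and 0.109) and held with quantile normalization.

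AMBRA1 was at 6.78, 6.70 and 6.84 FPKM in control, 7.40, 6.60 and 4.82 with SB-3CT, 7.92, 6.87 and 6.99 with IFN-γ, and 5.88, 5.37 and 5.41 with SB-3CT+IFN-γ. SB-3CT replicate 3 was the lowest of all 12 samples, so the SB-3CT group overlaps every other group. Against IFN-γ the log2 change was -0.33 ± 0.08 (n = 3 and 3, limma adjusted p = 0.0153), and -0.11 after median ratio scaling (limma adjusted p = 0.214). The call was also lost without SB-3CT+IFN-γ replicate 2 or 3 (limma adjusted p = 0.0586 and 0.0596). The difference of ATG14, which directs the complex to autophagy, was -0.29 against IFN-γ and did not pass the test (limma adjusted p = 0.0602).

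Among the lipid supply proteins, ATG9A, the scramblase on the vesicles that seed the membrane, was at 17.3, 16.8 and 16.5 FPKM in control, 17.8, 18.1 and 18.8 with SB-3CT, 16.2, 15.7 and 16.5 with IFN-γ, and 13.4, 12.2 and 12.1 with SB-3CT+IFN-γ. The SB-3CT samples were the highest and the SB-3CT+IFN-γ samples the lowest, with no overlap between these groups. The log2 change of SB-3CT+IFN-γ was -0.33 ± 0.06 against IFN-γ (limma adjusted p = 0.00571, and 0.250 after median ratio scaling, at -0.10). Against SB-3CT it was -0.50 ± 0.05 (limma adjusted p = 0.00121), and this call was kept under each of the 14 alternatives. The SB-3CT change with IFN-γ differed from that without by -0.44 (limma adjusted p = 0.00448, and 0.0560 after median ratio scaling).

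The lipid transfer proteins ATG2A and ATG2B differed in level. ATG2B, long and scarce, was at 1.31, 1.23 and 1.14 FPKM in control, 1.09, 0.872 and 0.970 with SB-3CT, 1.17, 0.849 and 1.00 with IFN-γ, and 0.541, 0.569 and 0.588 with SB-3CT+IFN-γ. The SB-3CT+IFN-γ samples lay below all others. Its log2 change against IFN-γ was -0.36 ± 0.07 (limma adjusted p = 0.00733), and -0.25 after median ratio scaling (limma adjusted p = 0.0169). The call was lost only with the length trend removed (-0.14, limma adjusted p = 0.0961). ATG2A was at 7.82, 7.16 and 7.59 FPKM in control and 8.93, 8.85 and 9.09 with SB-3CT. These groups did not overlap, and the rise of 0.23 ± 0.06 (limma adjusted p = 0.0469) was lost without any sample except SB-3CT replicate 1 (limma adjusted p up to 0.133).

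In the conjugation system, ATG16L1 and ATG10 of 7 genes fell against IFN-γ, near the 31.5% of all genes called lower. ATG16L1, which places the conjugation enzyme on the membrane, was at 9.21, 8.13 and 10.3 FPKM in control, 10.003, 9.36 and 8.95 with SB-3CT, 9.79, 7.75 and 9.90 with IFN-γ, and 7.15, 7.59 and 6.90 with SB-3CT+IFN-γ. Its change of -0.30 ± 0.10 against IFN-γ sat at the threshold, and that of ATG10, an E2-like enzyme, was -0.27 ± 0.08 (limma adjusted p = 0.0384). Both calls were lost under median ratio scaling (-0.07 and -0.08, limma adjusted p = 0.545 and 0.454) and without any sample except IFN-γ replicate 2 (limma adjusted p up to 0.171 and 0.108), and ATG10 turned to 0.013 under quantile normalization. ATG12 was 12.3 to 13.5 FPKM with IFN-γ and 12.6 to 13.3 with SB-3CT+IFN-γ (0.24 higher after median ratio scaling, limma adjusted p = 0.0208), and ATG5, ATG7, ATG3 and ATG16L2 passed the test in neither direction on the deposited scale. ATG3, the enzyme that hands ATG8 to lipid, was at 37.5, 35.5 and 34.4 FPKM with SB-3CT and 27.5, 30.4 and 28.2 with SB-3CT+IFN-γ. These groups were apart, and ATG3 fell by 0.31 ± 0.05 on the log2 scale (limma adjusted p = 0.0061, and 0.482 after median ratio scaling).

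Among the 4 ATG4 proteases, ATG4D rose with SB-3CT, and ATG4A and ATG4C fell with IFN-γ. ATG4D was at 19.4, 19.5 and 21.9 FPKM in control, 26.7, 27.1 and 27.4 with SB-3CT, 21.7, 20.9 and 20.7 with IFN-γ, and 22.2, 19.7 and 20.2 with SB-3CT+IFN-γ. The SB-3CT samples alone stood above the rest. The rise over control was 0.40 ± 0.06 (1.32-fold on the FPKM + 1 scale, limma adjusted p = 0.00911), the largest of the ATG side in that comparison, and was kept under each scaling. It was lost without control replicate 1 or 2 or SB-3CT replicate 2 or 3 (limma adjusted p between 0.0513 and 0.0613). With IFN-γ present the SB-3CT change was -0.03, and the difference between both SB-3CT changes was -0.43 (limma adjusted p = 0.00633, and 0.0960 after median ratio scaling).

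ATG4A was at 4.57, 4.01 and 4.12 FPKM in control, 4.17, 3.53 and 3.49 with SB-3CT, 3.29, 2.88 and 2.71 with IFN-γ, and 2.38, 2.86 and 1.81 with SB-3CT+IFN-γ. The control and IFN-γ samples did not overlap. IFN-γ lowered it by 0.40 ± 0.09 on the log2 scale (limma adjusted p = 0.0215), a call kept under each scaling and lost without any sample except IFN-γ replicate 1 (limma adjusted p up to 0.0793). ATG4C was at 4.28, 4.25 and 3.41 FPKM in control and 3.01, 2.94 and 2.65 with IFN-γ. Its change was -0.36 ± 0.10 (limma adjusted p = 0.0451), lost under median ratio scaling (limma adjusted p = 0.0620) and without any sample except control replicate 3 (limma adjusted p up to 0.142). ATG4B, the most active member of the family, was at 16.3, 16.1 and 16.5 FPKM in control and 18.1, 18.2 and 19.3 with SB-3CT. These groups did not overlap, and the difference of 0.17 did not pass on the deposited scale (limma adjusted p = 0.0504) and passed at 0.21 after median ratio scaling (limma adjusted p = 0.0389).

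Set against SB-3CT, the combined treatment lowered 4 more of the ATG-side genes described so far. ATG4A changed by -0.51 ± 0.13 (limma adjusted p = 0.0261, lost without any sample except SB-3CT+IFN-γ replicate 2, up to 0.0811) and ATG4D by -0.37 ± 0.05 (limma adjusted p = 0.00276). ATG16L1 changed by -0.35 ± 0.06 (limma adjusted p = 0.00656) and ATG2B by -0.34 ± 0.05 (limma adjusted p = 0.00478). After median ratio scaling ATG2B and ATG9A remained lower, at -0.23 and -0.26, and ATG4A, ATG4D and ATG16L1 were at -0.31, -0.12 and -0.11 and did not pass (limma adjusted p = 0.134, 0.183 and 0.179). The other ATG-side genes called lower were ATG13, ATG2A, ATG4B and ATG7, with changes between -0.30 and -0.25, and each was lost under median ratio scaling.

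**Figure D2:**
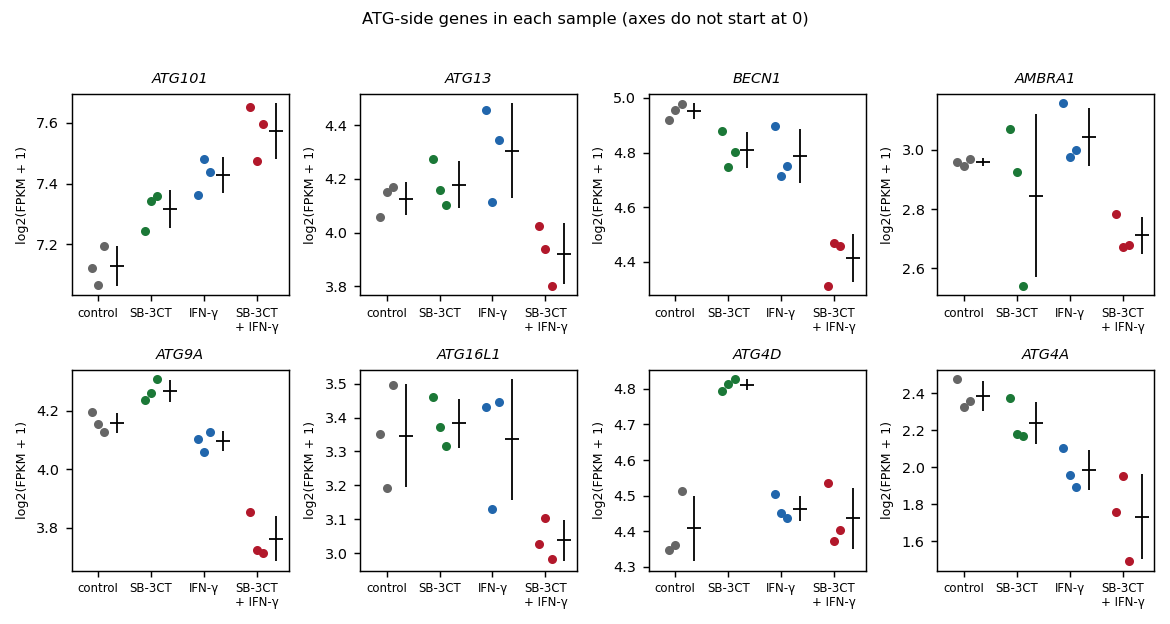
ATG-side genes in each of the 12 samples, log2(FPKM + 1) on the vertical axes, which do not start at 0. Points are samples, and the mark beside them is the mean ± SD (n = 3). For BECN1, ATG13, ATG9A and ATG16L1 the SB-3CT+IFN-γ samples are the lowest, ATG4D is highest with SB-3CT at 26.7 to 27.4 FPKM, and ATG101 is lowest in control.

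In the pump, the catalytic ring of the V1 sector was the part that IFN-γ raised. ATP6V1B2, the nucleotide-binding subunit, was at 25.4, 27.7 and 30.2 FPKM in control, 27.9, 26.7 and 27.9 with SB-3CT, 45.6, 37.8 and 42.3 with IFN-γ, and 34.0, 33.2 and 32.5 with SB-3CT+IFN-γ. The IFN-γ samples were above all others, and the SB-3CT+IFN-γ samples lay between them and those without IFN-γ. The rise with IFN-γ over control was 0.58 ± 0.09 (1.49-fold on the FPKM + 1 scale, limma adjusted p = 0.00768), and that of SB-3CT+IFN-γ over SB-3CT was 0.26 ± 0.04 (limma adjusted p = 0.00286, and 0.52 after median ratio scaling). Both calls held under each of the 14 alternatives. The change against IFN-γ was -0.32 (limma adjusted p = 0.0116) and -0.07 after median ratio scaling (limma adjusted p = 0.290), and was lost without IFN-γ replicate 3 or SB-3CT+IFN-γ replicate 3 (limma adjusted p = 0.0568 and 0.0556).

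ATP6V1A (chr3:113465617-113530903, hg19), the catalytic subunit that binds ATP, was at 20.1, 17.0 and 19.6 FPKM in control, 20.0, 15.8 and 16.8 with SB-3CT, 26.1, 21.9 and 24.0 with IFN-γ, and 14.8, 16.0 and 14.5 with SB-3CT+IFN-γ. It was highest with IFN-γ, and in SB-3CT+IFN-γ it was below every control and IFN-γ sample. Against IFN-γ it fell by 0.63 ± 0.07 on the log2 scale (1.55-fold lower on the FPKM + 1 scale, limma adjusted p = 0.00211). The change was -0.39 after median ratio scaling and -0.30 with the length trend removed, and the call held under all 14 alternatives. The rise with IFN-γ of 0.33 ± 0.09 (limma adjusted p = 0.0468) was lost without any sample except IFN-γ replicate 2 (limma adjusted p up to 0.130).

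The rotor and the stalks moved opposite to the ring under IFN-γ. ATP6V1D (chr14:67761088-67826982, hg19), the rotor shaft, was at 39.1, 38.8 and 35.4 FPKM in control, 33.2, 29.5 and 30.3 with SB-3CT, 26.7, 25.8 and 26.0 with IFN-γ, and 26.8, 28.8 and 32.7 with SB-3CT+IFN-γ. Control was the highest group and IFN-γ the lowest. IFN-γ lowered it by 0.51 ± 0.05 on the log2 scale (1.43-fold on the FPKM + 1 scale, limma adjusted p = 0.00135), kept under all 14 alternatives. SB-3CT alone lowered it by 0.28 ± 0.06 (limma adjusted p = 0.0320), a call lost without any sample except SB-3CT replicate 1 (limma adjusted p up to 0.126). With IFN-γ present the SB-3CT change was 0.16 (limma adjusted p = 0.138), and the difference of 0.44 ± 0.10 between both SB-3CT changes (limma adjusted p = 0.0128) held under each of the 19 alternatives.

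ATP6V1F, the small rotor subunit, was at 420, 436 and 423 FPKM in control, 409, 470 and 463 with SB-3CT, 323, 380 and 349 with IFN-γ, and 479, 475 and 480 with SB-3CT+IFN-γ. The IFN-γ samples were the lowest and the SB-3CT+IFN-γ samples the highest. The rise against IFN-γ was 0.45 ± 0.07 (limma adjusted p = 0.00342), and 0.70 after median ratio scaling. With the length trend removed it was smaller, at 0.16 (limma adjusted p = 0.0383). The call was lost under quantile normalization alone (0.14, limma adjusted p = 0.0653). The fall with IFN-γ, -0.28 ± 0.07 (limma adjusted p = 0.0320), was lost under median ratio scaling (-0.23, limma adjusted p = 0.162) and without any sample except IFN-γ replicate 2 (limma adjusted p up to 0.110).

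The peripheral stalk subunits ATP6V1E1 and ATP6V1G1, which hold the ring still against the rotor, were lowest with IFN-γ too. ATP6V1E1 was at 98.5, 100 and 97.6 FPKM in control, 101, 101 and 99.7 with SB-3CT, 78.0, 78.6 and 80.9 with IFN-γ, and 90.7, 92.9 and 91.9 with SB-3CT+IFN-γ. The IFN-γ samples were the lowest, and the SB-3CT+IFN-γ samples lay between them and the 6 samples without IFN-γ. IFN-γ changed it by -0.32 ± 0.04 on the log2 scale (limma adjusted p = 0.00227) and SB-3CT raised it with IFN-γ present, by 0.21 ± 0.04 (limma adjusted p = 0.00851, and 0.46 after median ratio scaling), both kept under all 14 alternatives. ATP6V1G1 (chr9:117349986-117361195, hg19) was at 79.1, 79.1 and 76.3 FPKM in control, 73.8, 74.1 and 82.0 with SB-3CT, 63.6, 68.6 and 66.1 with IFN-γ, and 86.5, 88.8 and 88.6 with SB-3CT+IFN-γ. IFN-γ samples were the lowest and SB-3CT+IFN-γ samples the highest, with no overlap. The rise against IFN-γ was 0.41 ± 0.05 (limma adjusted p = 0.00209), and 0.66 after median ratio scaling, and held under all 14 alternatives. The change with IFN-γ alone was -0.24 ± 0.04 (limma adjusted p = 0.0118), and was lost under median ratio scaling (limma adjusted p = 0.10) and without control replicate 1 or 2 or IFN-γ replicate 3 (limma adjusted p up to 0.0521).

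The regulatory subunits of V1, ATP6V1C1 and ATP6V1H, which take part in the coupling and release of V1, had their lowest group means with the combined treatment. ATP6V1C1 was at 12.8, 12.3 and 11.7 FPKM in control, 10.96, 9.00 and 9.26 with SB-3CT, 11.4, 9.11 and 9.42 with IFN-γ, and 7.06, 8.22 and 7.90 with SB-3CT+IFN-γ. All treated samples lay below the controls. Its changes were -0.31 ± 0.08 with SB-3CT (limma adjusted p = 0.0490) and -0.33 ± 0.10 for SB-3CT+IFN-γ against IFN-γ (limma adjusted p = 0.0348). The first was lost without any sample except SB-3CT replicate 1 (limma adjusted p up to 0.165), and the second without any sample except IFN-γ replicate 2 (limma adjusted p up to 0.116), and the second became 0.023 with the length trend removed. ATP6V1H was at 23.7, 23.6 and 21.1 FPKM with SB-3CT and 14.0, 16.0 and 14.9 with SB-3CT+IFN-γ, and 21.5, 15.7 and 20.7 with IFN-γ, where replicate 2 reached down to the SB-3CT+IFN-γ samples. It fell by 0.58 ± 0.07 on the log2 scale against SB-3CT (limma adjusted p = 0.00174), kept under all 14 alternatives, with -0.33 after median ratio scaling. Against IFN-γ the difference of -0.34 ± 0.12 did not pass (limma adjusted p = 0.0590).

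In the V0 sector the isoforms of the a subunit, which decide where in the cell the pump works, differed. ATP6V0A4 (chr7:138391039-138484305, hg19), known from kidney and inner ear, was at 3.25, 3.29 and 3.24 FPKM in control, 4.29, 3.63 and 4.52 with SB-3CT, 1.496, 1.75 and 1.63 with IFN-γ, and 1.302, 1.40 and 1.29 with SB-3CT+IFN-γ. The 4 groups did not overlap, with SB-3CT the highest and SB-3CT+IFN-γ the lowest. IFN-γ changed it by -0.70 ± 0.07 against control (1.62-fold lower on the FPKM + 1 scale, limma adjusted p = 0.00122). In the presence of SB-3CT the change was -1.14 ± 0.09, 2.20-fold lower on the FPKM + 1 scale (limma adjusted p = 0.000427). It was -0.97 after median ratio scaling. This change was the largest of any pump gene, and both IFN-γ calls held under all 14 alternatives. Mean FPKM was 4.15 with SB-3CT and 1.33 with SB-3CT+IFN-γ, a larger fold than on the FPKM + 1 scale. ATP6V0A1 was at 10.9, 8.94 and 10.7 FPKM with IFN-γ and 7.71, 7.68 and 7.25 with SB-3CT+IFN-γ. Its change of -0.38 ± 0.09 (limma adjusted p = 0.0114) was lost under median ratio scaling (-0.16, limma adjusted p = 0.0993) and without IFN-γ replicate 3 or SB-3CT+IFN-γ replicate 3 (limma adjusted p = 0.0568 and 0.0536). ATP6V0A2 was between 2.53 and 3.94 FPKM and passed no test on the deposited scale or after median ratio scaling.

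ATP6V0E1, a small membrane subunit of V0, was at 248.96, 273 and 261 FPKM in control, 277, 296 and 301 with SB-3CT, 234, 254 and 241 with IFN-γ, and 341, 348 and 336 with SB-3CT+IFN-γ. The SB-3CT+IFN-γ samples were above all others. The rise against IFN-γ was 0.49 ± 0.05 (1.40-fold on the FPKM + 1 scale, limma adjusted p = 0.00207), and 0.75 after median ratio scaling, and held under all 14 alternatives. Its paralog ATP6V0E2, whose reads cannot be told from those of the overlapping ATP6V0E2-AS1 unless counting used the strand, was at 20.4, 20.1 and 20.1 FPKM in control and 16.9, 17.5 and 16.3 with IFN-γ. It changed by -0.25 ± 0.04 with IFN-γ (limma adjusted p = 0.0108, and 0.0531 after median ratio scaling), and SB-3CT+IFN-γ, at 15.0, 14.5 and 16.8 FPKM, differed from IFN-γ by -0.13 and did not pass (limma adjusted p = 0.195). The proteolipid subunits of the rotating ring, ATP6V0B and ATP6V0C, passed no test against control or against IFN-γ on the deposited scale. Against IFN-γ, ATP6V0B was 0.42 higher after median ratio scaling (limma adjusted p = 0.0398), and ATP6V0C changed by -0.25 under quantile normalization (limma adjusted p = 0.0260) and by -0.24 with the length trend removed (limma adjusted p = 0.0489). ATP6V0D1, which joins the ring to the rotor, was at 58.7, 57.6 and 57.4 FPKM in control and 64.3, 65.9 and 64.8 with SB-3CT. That rise was 0.16 ± 0.04 (limma adjusted p = 0.0298), and was lost under quantile normalization (limma adjusted p = 0.0567) and without any sample except SB-3CT replicate 1 (limma adjusted p up to 0.0961). Of the 4 genes with CACGTG printed at the start, ATP6V1G1 alone passed the test in SB-3CT+IFN-γ against IFN-γ on the deposited scale. There 4 pump genes and 6.41% of all genes were higher. ATP6V0B and ATP6V0D1 (0.25 higher, limma adjusted p = 0.0097) also passed after median ratio scaling, where 7 pump genes and 16.5% of all genes were higher. ATG3 and ATG14, the ATG-side genes with the element, did not pass on the deposited scale. A link between the element and these changes was not tested.

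The accessory proteins help the pump to assemble and mature. ATP6AP2, also known as the prorenin receptor, was at 49.6, 53.0 and 55.3 FPKM in control, 46.4, 43.99 and 43.1 with SB-3CT, 55.1, 48.7 and 47.7 with IFN-γ, and 37.02, 36.5 and 37.3 with SB-3CT+IFN-γ. Samples with SB-3CT lay below those without it at either IFN-γ state. The log2 change was -0.44 ± 0.06 against IFN-γ (limma adjusted p = 0.00288), kept under all 14 alternatives though smaller at -0.19 after median ratio scaling, and -0.24 ± 0.05 for SB-3CT against control (limma adjusted p = 0.0327), lost without any sample except SB-3CT replicate 1 (limma adjusted p up to 0.123). ATP6AP1 was at 57.7, 63.5 and 67.7 FPKM in control, 62.5, 64.2 and 64.2 with SB-3CT, 55.1, 48.7 and 49.9 with IFN-γ, and 49.1, 43.5 and 43.4 with SB-3CT+IFN-γ. Its log2 change with IFN-γ was -0.29 ± 0.07 (limma adjusted p = 0.0413), a call lost without control replicate 2 or 3 or IFN-γ replicate 2 or 3 (limma adjusted p up to 0.132).

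Against SB-3CT, SB-3CT+IFN-γ changed ATP6AP1 by -0.48 ± 0.06 (limma adjusted p = 0.00161, and 0.0501 after median ratio scaling). ATP6V0E2, at 18.8, 19.0 and 20.5 FPKM with SB-3CT, changed by -0.32 ± 0.07 (limma adjusted p = 0.0116) and ATP6V1C1 by -0.30 ± 0.09 (limma adjusted p = 0.0412). After median ratio scaling both calls were lost, at -0.07 and -0.06, and that of ATP6V1C1 was lost without any single sample (limma adjusted p up to 0.114). ATP6V1E1 was called lower on the deposited scale at -0.13 and lay at 0.13 after median ratio scaling, where it did not pass (limma adjusted p = 0.0561). The 5 pump genes below 1 FPKM were called by limma in 0 of the 5 comparisons, and ATP6V0D2 alone had an unadjusted p under 0.05, in SB-3CT+IFN-γ against IFN-γ (limma adjusted p = 0.104).

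**Figure D3:**
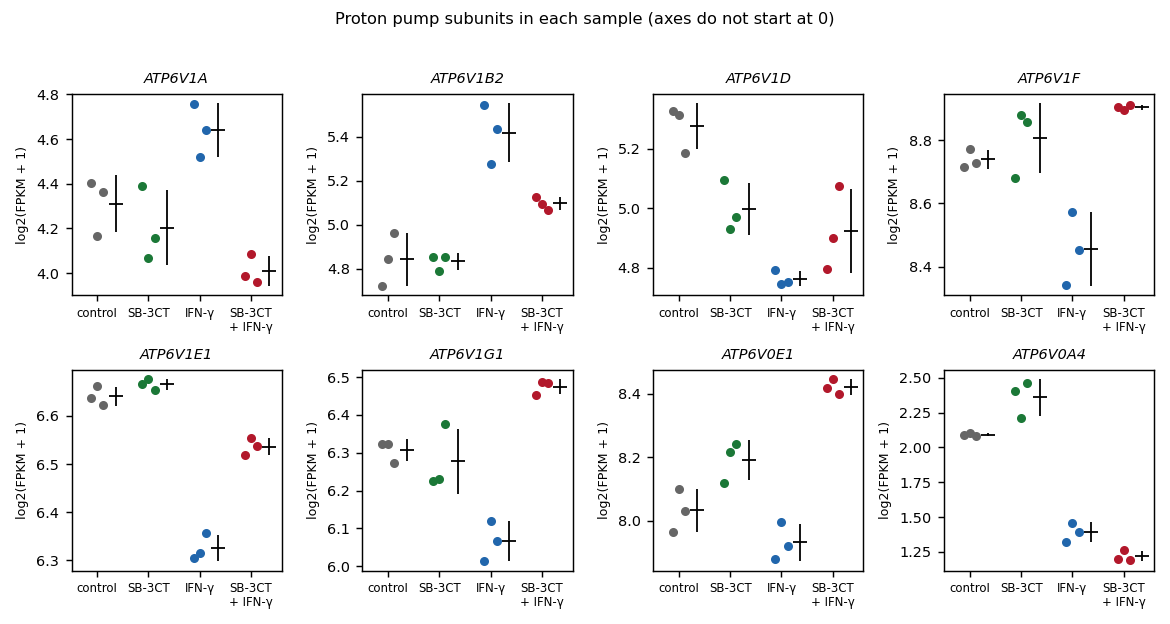
Pump genes in each of the 12 samples, log2(FPKM + 1) on the vertical axes, which do not start at 0. Points are samples, and the mark beside them is the mean ± SD (n = 3). ATP6V1A and ATP6V1B2 are highest with IFN-γ, while ATP6V1E1, ATP6V1F and ATP6V1G1 are lowest there, and ATP6V0A4 is between 1.29 and 1.75 FPKM in the samples with IFN-γ.

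Read as a ratio within a sample, the opposite movement within V1 does not depend on a single scaling factor per sample. The ratio can still move under quantile normalization or with the length trend removed. Against IFN-γ, ATP6V1A changed by -0.63 on the deposited scale, and by -0.43 and -0.30 under these settings. ATP6V1G1 changed by 0.41, and by 0.36 and 0.42, in the same order. The pairs were chosen after the values were seen, so the ratios are a description. The log2 ratio of ATP6V1A to ATP6V1G1 FPKM had a mean of -2.05 ± 0.15 (SD, n = 3) in control, -2.14 ± 0.22 with SB-3CT, -1.46 ± 0.18 with IFN-γ and -2.54 ± 0.07 with SB-3CT+IFN-γ. The ratio of ATP6V1B2 to ATP6V1G1 was -1.497 ± 0.15, -1.48 ± 0.08, -0.66 ± 0.19 and -1.40 ± 0.05 in the same order. Both ratios were highest in the 3 IFN-γ samples, and that of ATP6V1A was lowest with SB-3CT+IFN-γ. The ratio of the rotor subunit ATP6V1F to the stalk subunit ATP6V1G1 stayed between 2.35 and 2.67 in all 12 samples. Subunits of the same part did not always move together. Within the stalk, the log2 ratio of ATP6V1E1 to ATP6V1G1 was 0.26 ± 0.06 with IFN-γ and 0.06 ± 0.008 with SB-3CT+IFN-γ. Within the ring, that of ATP6V1A to ATP6V1B2 was -0.80 ± 0.02 with IFN-γ and -1.14 ± 0.07 with SB-3CT+IFN-γ.

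The ATG side and the pump were also set against each other within samples, as the median deviation of the pump genes from their control means minus that of the ATG-side genes. It was -0.01, 0.02 and -0.01 in control, -0.03, 0.03 and 0.06 with SB-3CT, -0.11, -0.07 and -0.10 with IFN-γ, and 0.07, 0.10 and 0.18 with SB-3CT+IFN-γ (log2). The pump median was below the ATG-side median in the 3 IFN-γ samples and above it in the 3 SB-3CT+IFN-γ samples. These medians cover all 20 ATG-side and 23 pump genes, the 5 pump genes below 1 FPKM included. The pump median of IFN-γ replicate 3 was set by ATP6V0D2 and that of SB-3CT+IFN-γ replicate 1 by ATP6AP1L, both listed at 0 there. That of SB-3CT replicate 1 was also set by ATP6AP1L, at 0.105 FPKM. Among members of at least 1 FPKM, the pump median change minus the ATG-side one was -0.09 in IFN-γ against control. It was 0.10 in SB-3CT+IFN-γ against IFN-γ. No test was made over members, which are not replicates. Groups did not overlap for 11 of 20 ATG-side and 12 of 23 pump genes in SB-3CT+IFN-γ against IFN-γ, where 49.0% of all genes did not, for 8 and 10 in IFN-γ against control (36.9% of all genes), for 9 and 9 in SB-3CT against control (33.9%), and for 14 and 15 in SB-3CT+IFN-γ against SB-3CT (51.7%).

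Transcript length moved with these changes. Among members with a mean of at least 1 FPKM, the median transcript length was 3185 bases on the ATG side and 1888.5 bases for the pump, against 3082 over all genes that passed. The 4 pump genes that rose against IFN-γ were 678 to 1563 bases long, the 5 that fell 2242 to 5635 bases, and the 7 ATG-side genes that fell 2109 to 13162 bases. Over all genes that passed, the median log2 change in that comparison was 0.03 in the shortest of 3 length classes of about equal size, -0.23 in the middle and -0.39 in the longest. With that length trend removed from each sample, 1 ATG-side gene rose and 1 fell, 4 pump genes rose and 3 fell, 7.87% of all genes were higher and 11.5% lower, and the pump median minus the ATG-side median was 0.0033. The part of length in the members' changes was not tested. BECN1, ATP6V1A, ATP6AP2, ATP6V0E1, ATP6V1E1, ATP6V1F and ATP6V1G1 kept their direction and call with the trend removed. The change of ATP6V1F was then 0.16, against 0.45 on the deposited scale, and that of ATP6V1A -0.30, against -0.63.

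**Figure D4:**
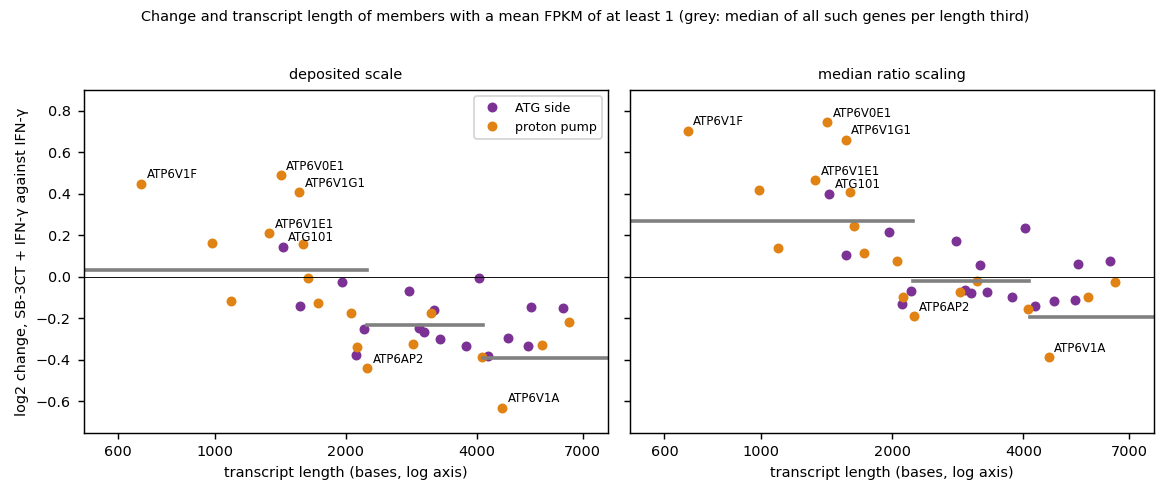
Log2 change of each member with a mean of at least 1 FPKM in SB-3CT+IFN-γ against IFN-γ (vertical axis) by transcript length in bases (horizontal log axis), on the deposited scale at left and after median ratio scaling at right. Purple dots are ATG-side genes, orange dots pump genes, and grey lines the medians of all genes with such a mean in each length class (0.03, -0.23 and -0.39 at left). The short pump genes that rose sit at the upper left of each panel, and ATP6V1A at the bottom.

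Related genes outside the families were read from lists of the genes in the table. Of 24 other autophagy genes, 1 rose and 9 fell in SB-3CT+IFN-γ against IFN-γ (5 and 1 after median ratio scaling), where 6.41% of all genes were higher and 31.5% lower (16.5% and 15.5% after scaling). In the same list 3 rose and 3 fell with IFN-γ (8.46% and 11.0% of all genes), and 1 rose and 4 fell with SB-3CT (5.37% and 6.87%). The mitophagy receptor BNIP3L changed by -0.50 against IFN-γ (limma adjusted p = 0.0059), and by -0.28 after median ratio scaling. The receptor CALCOCO2, which captures intracellular bacteria, rose with IFN-γ by 0.72 ± 0.05 (limma adjusted p = 0.000475) and DRAM1, a lysosomal membrane protein, by 0.65 ± 0.08 (limma adjusted p = 0.00308), while DEPTOR, an inhibitor of mTOR, fell by 0.91 ± 0.07 (limma adjusted p = 0.000521). Against the same shares, of 7 pump assembly factors and chloride carriers 1 rose and 4 fell against IFN-γ (1 and 3 after median ratio scaling), 0 rose and 2 fell with IFN-γ, and 0 rose and 1 fell with SB-3CT. Against IFN-γ the chloride exchanger CLCN3 fell by 0.62 ± 0.07 (limma adjusted p = 0.00211), the pump regulator DMXL2 by 0.45 ± 0.09 (limma adjusted p = 0.00885), and the assembly factor CCDC115 rose by 0.36 ± 0.06 (limma adjusted p = 0.00497). The changes of CLCN3, DMXL2 and CCDC115 after median ratio scaling were -0.39, -0.31 and 0.60, and each passed.

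Of 32 other lysosomal genes, mainly hydrolases and membrane proteins, 1 rose and 8 fell against IFN-γ (6.41% and 31.5% of all genes), and 8 rose and 2 fell after median ratio scaling, where 16.5% of all genes were higher and 15.5% lower. With IFN-γ alone 8 rose and 4 fell (8.46% and 11.0% of all genes), and with SB-3CT 4 rose and 1 fell (5.37% and 6.87%). The cysteine protease CTSS rose with IFN-γ by 4.55 ± 0.08 (limma adjusted p = 1.57e-06) and CTSO by 1.54 ± 0.07 (limma adjusted p = 5.98e-05), far beyond any pump gene. CTSO fell with added SB-3CT by 0.62 ± 0.12 (limma adjusted p = 0.00674), and CTSL rose by 0.39 ± 0.07 (limma adjusted p = 0.00446). These were -0.45 for CTSO and 0.64 for CTSL after median ratio scaling. CLN3, a lysosomal membrane protein, rose with SB-3CT by 0.48 ± 0.09 (limma adjusted p = 0.0210). In these lists the members called lower against IFN-γ were more numerous on the deposited scale, and those called higher after median ratio scaling for the autophagy and lysosomal lists.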

How the data were processed

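RNA of A375 cells was sequenced as 150-base paired reads in 12 samples of 4 groups. Per the submitters' processing notes, reads were aligned to hg19 with HISAT2 2.0.5 and FPKM was calculated with StringTie 1.3.3. The deposited values are log2 values that match log2(FPKM + 1). They reach 12.16, and summed FPKM lies between 121928 and 129692 per sample, so the log step planned for FPKM was left out. The 4918 genes run from A1BG to FAM46B by symbol, and other genes were not analysed here. In total 0 columns of values were left unused.

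For each comparison a linear model was fitted over its 3 + 3 samples, unpaired, by limma (version 3.58.1, R 4.3.3), with moderated variances that follow the mean. A further model over all 12 samples tested whether IFN-γ altered the SB-3CT change. P-values are two-sided and adjusted by the Benjamini-Hochberg method over 4918 genes, and genes were called under 0.05. An exact permutation test of 3 samples against 3 cannot go below 0.1. Changes on the log2(FPKM + 1) scale understate those of scarce genes. The alternatives were a pseudocount of 0.1, a mean of at least 1 FPKM, median ratio scaling, quantile normalization, all groups in a single fit, the replicate number as a block, eBayes without trend, removal of each sample's length trend, and each sample left out. The functions were tested on simulated data. Lengths and hg19 positions came from GENCODE 44 (4458 symbols matched directly, 417 by synonym), and promoters from RefSeq with Python 3.11.15. Relative depth was read from the steps of the lowest FPKM values, and no counting error can be given.

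The genes and lists were chosen with earlier results of these data known, and the separation of the antisense RNAs after their symbols had been seen. Values per sample are given for up to 6 called members of each side and comparison with the largest change and a mean of at least 1 FPKM in either group, for BECN1, AMBRA1 and the highest member of each side, and for members described with them, which were chosen after their values were seen. From the other lists up to 2 rises and 2 falls per comparison qualify, and those named are a selection made after the values were seen.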

Additional observations from a re-analysis of the deposited data

Results flagged for a closer look

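The SB-3CT change differed between cells with and without IFN-γ for 16 members, by the limma test of the difference over 12 samples (adjusted p under 0.05), while 22.3% of all genes were called by that test, 4.74% higher and 17.6% lower. These are differences of 2 log2 changes, and a negative value means that SB-3CT lowered the gene more, or raised it less, with IFN-γ present.

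On the ATG side all 5 values were negative. They were -0.44 for ATG9A, -0.43 for ATG13, -0.43 for ATG4D, -0.37 for ATG2A and -0.24 for ATG4B. After median ratio scaling 0 of the 5 passed (limma adjusted p between 0.0560 and 0.814), with 7.81% of all genes higher and 5.23% lower. ATG13 was also lost with a sample left out, except for control replicate 3, SB-3CT replicates 2 and 3, IFN-γ replicate 2 and SB-3CT+IFN-γ replicate 1 (limma adjusted p up to 0.0693), and ATG4B except for IFN-γ replicate 2 and SB-3CT+IFN-γ replicate 1 (up to 0.0989).

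In the pump 5 values were positive and 6 negative. The positive ones were 0.44 for ATP6V1G1, 0.44 for ATP6V1D, 0.38 for ATP6V1F, 0.33 for ATP6V0E1 and 0.19 for ATP6V1E1, and all 5 passed after median ratio scaling too. ATP6V1F and ATP6V0E1 were lost under quantile normalization (limma adjusted p = 0.237 and 0.192), and ATP6V1F also with the length trend removed (0.158). The negative ones were -0.54 for ATP6V1H, -0.52 for ATP6V1A, -0.44 for ATP6V0A4, -0.31 for ATP6V1B2, -0.30 for ATP6V0A1 and -0.27 for ATP6V0C, of which 0 passed after median ratio scaling. With a sample left out, ATP6V0A1 was called only without IFN-γ replicate 2, ATP6V1B2 only without that sample or control replicate 3, ATP6V0C only without control replicate 3, IFN-γ replicate 1 or 2 or SB-3CT+IFN-γ replicate 1, and ATP6V1H only without control replicate 3, SB-3CT replicate 3, IFN-γ replicate 2 or SB-3CT+IFN-γ replicate 2 (limma adjusted p up to 0.112, 0.102, 0.101 and 0.0707).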

How the results depend on the processing

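Of 79 calls of members over the 5 comparisons, 20 held in every alternative. Of 1184 values recomputed, 867 kept their direction and call, 310 lost the call and 7 turned direction. The scaling between samples mattered most, with 37 calls lost and 4 turned under median ratio scaling. Absolute depth is unknown, so differences of scarce members such as ATG9B were not detectable beyond the spread between samples.

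In SB-3CT+IFN-γ against IFN-γ, the 7 ATG-side calls became 4 under median ratio scaling, 3 under quantile normalization and 2 with the length trend removed, and 3 to 8 with a sample left out. Lower ATG-side genes went from 7 to 1, 2 and 1 (3 to 8), and higher ones from 0 to 3, 1 and 1 in the same order. The 9 pump calls ranged from 6 to 10 with a sample left out. Lower pump genes went from 5 to 2 under median ratio scaling and 3 with the length trend removed (2 to 6 with a sample left out), and higher ones from 4 to 7 (4 to 5). The pump median minus the ATG-side median of 0.09 became 0.020 under quantile normalization and 0.0033 with the length trend removed (0.018 to 0.17).

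In SB-3CT against control, the 2 ATG-side calls became 6 among genes of at least 1 FPKM, 4 under quantile normalization, with all groups in a fit and without trend, and 0 to 6 with a sample left out. The 4 pump calls became 7 among genes of at least 1 FPKM (0 to 5), and the median difference of 0.01 became -0.030 under quantile normalization. In IFN-γ against control, the 3 ATG-side calls became 5 with the length trend removed (0 to 3), the 9 pump calls ranged from 5 to 9, and the median difference of -0.05 became -0.0035 under quantile normalization.

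In SB-3CT+IFN-γ against SB-3CT, the 12 ATG-side calls became 5 under median ratio scaling (7 to 10), the 13 pump calls 6 and, under quantile normalization, 7 (8 to 11). The median difference of 0.11 became 0.069 under the filter, 0.070 under median ratio scaling, 0.028 under quantile normalization and -0.0080 with the length trend removed (0.081 to 0.15). For the difference of both SB-3CT changes, the 5 ATG-side calls became 0, 1 and 1 (3 to 7) and the 11 pump calls 5, 4 and 5 (7 to 12) under median ratio scaling, quantile normalization and length trend removal, and the median difference of 0.07 became -0.057 and -0.039 under the latter pair (-0.019 to 0.12). The causes were not tested.

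Single genes that turned were ATG10 (0.013, quantile) and ATP6V1C1 (0.023, length trend) against IFN-γ, and against SB-3CT ATP6V0A1 (0.053 under median ratio scaling, 0.016 quantile), ATP6V0C (0.025), ATP6V0D1 (0.12) and ATP6V1E1 (0.13), the last 3 under median ratio scaling.

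The replicate numbers did not pair the samples: deviations of same-numbered samples correlated at -0.07, -0.06 and 0.04 in SB-3CT+IFN-γ against IFN-γ, 0.04, -0.01 and 0.07 in SB-3CT against control, 0.09, 0.17 and -0.03 in IFN-γ against control, and -0.39, -0.24 and -0.09 in SB-3CT+IFN-γ against SB-3CT, over 3177 genes. With the replicate block, the 2 ATG-side and 4 pump calls of SB-3CT against control became 1 and 0, the 12 and 13 calls of SB-3CT+IFN-γ against SB-3CT became 7 and 7, and 23 of 79 member calls were lost.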

Other observations

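The antisense RNA ATP6V1B1-AS1, which lies opposite the scarce kidney gene ATP6V1B1 on chromosome 2, moved more than most pump genes. It was at 8.29, 7.84 and 7.34 FPKM in control, 10.6, 10.8 and 11.2 with SB-3CT, 5.61, 4.79 and 4.92 with IFN-γ, and 7.20, 8.06 and 7.35 with SB-3CT+IFN-γ, while ATP6V1B1 itself stayed at or below 0.125 FPKM. SB-3CT raised it both without IFN-γ (log2 change 0.43 ± 0.06, limma adjusted p = 0.0109) and with it (0.48 ± 0.08, limma adjusted p = 0.00468), and IFN-γ lowered it (-0.53 ± 0.08, limma adjusted p = 0.00615). The rise without IFN-γ was lost without control replicate 2 or 3 or SB-3CT replicate 2 or 3 (limma adjusted p up to 0.0613). Whether counting used the strand is not given in the sources used here, so reads of the antisense RNA and of the gene on the other strand cannot be told apart. ATP6V0E2-AS1, at 0.239 to 0.707 FPKM, passed no test on the deposited scale.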
